A study of Mus musculus with 92 samples.

Results

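The untreated GABPA degron line of mouse embryonic stem cells was compared with the untreated GABPB1 degron line by RNA-seq. The members were chosen by their labels alone: every RNA-seq library of either line that received only DMSO, which gave 2 libraries of each line, 4 of the 92 samples in the series. All 16396 genes that passed a filter on low counts, of 56953 gene IDs, were tested. In the GABPA line both Gabpa alleles carry a dTAG tag (genotype GabpadTAG/dTAG), and in the GABPB1 line both Gabpb1 alleles carry it (Gabpb1dTAG/dTAG). The tag is a degron: the small molecule dTAG-13 brings the tagged protein to the cell's degradation machinery, while DMSO is only its solvent. Both lines derive from B6 cells, and all 4 libraries come from cells given DMSO for 12 h. They were cultured with serum, LIF, the MEK inhibitor PD0325901 and the GSK3 inhibitor CHIR99021. A line with the tag on both GABPB1 and GABPB2 (Gabpb1/b2dTAG/dTAG; DMSO, 2 libraries) and the same lines after 500 nM dTAG-13 for 12 h (2 libraries each) served as further references. The labels give no clone, passage or batch and no untagged parent, so the line, its tag, its clone and its batch cannot be told apart.

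GABP is an ETS-family transcription factor made of a DNA-binding subunit, GABPA, and a partner that carries the activation domain, GABPB1 or its paralogue GABPB2. It binds the motif CCGGAAGT, mostly at promoters close to the start of transcription. Genes of mitochondrial respiration, mitochondrial translation and basic cell growth are among its best known targets, and mouse embryos without GABPA die early.

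Depth was 17.6 M and 21.4 M expected counts (M, 1e6) in the GABPA line and 28.5 M and 31.6 M in the GABPB1 line. Mean fragment length, computed from the deposited transcript lengths, was 255.3 and 252.0 bases in the GABPA line, against 290.2 and 292.5 bases in the GABPB1 line and 231.5 and 268.2 bases in the GABPB1/GABPB2 line. Genes of the mitochondrial genome took 0.889% and 0.854% of counts in the GABPA line, against 2.33% and 2.299% in the GABPB1 line. Depth, fragment length and mitochondrial share thus moved with the line, and their part in the results below was not tested except where a value is given. The 10 embryonic stem cell markers examined were all present in both lines, with a summed level of 7480 and 7490 CPM (counts per 1e6 counts of the library) in the GABPA line and 6680 and 6700 CPM in the GABPB1 line. The 7 fibroblast markers summed to 4.7 and 3.7 CPM in the GABPA line and 4.87 and 5.75 CPM in the GABPB1 line, with Col3a1, Postn and Lum at 0 reads in all 4 libraries. The 8 markers of differentiated cells summed to 24.1 and 21.0 CPM in the GABPA line, against 7.71 and 7.22 CPM in the GABPB1 line, mostly through Sox1, and were low in both beside the stem cell markers.

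The tagged genes themselves differed at the RNA level. Gabpa (chromosome 16, 84631813 to 84660667 of mm39, plus strand) had 48.9 and 46.4 CPM in the GABPA line, against 142 and 143 CPM in the GABPB1 line. It was lower in the GABPA line by a log2 fold change of -1.58 ± 0.0738 (SE; adjusted p = 3.5e-11, edgeR), and in the GABPB1/GABPB2 line it stood at 144 and 161 CPM, near the GABPB1 line. Gabpb1 (chromosome 2, 126469362 to 126518257, minus strand) had 52.5 and 41.3 CPM in the GABPA line, against 32.8 and 32.0 CPM in the GABPB1 line, and was higher in the GABPA line by 0.53 ± 0.103 (adjusted p = 0.000304). That call was lost when each gene's effective length in each library entered the fit (0.24, adjusted p = 0.0928). Gabpb2 (chromosome 3), the paralogue, had 86.0 and 82.8 CPM in the GABPA line and 89.4 and 93.2 CPM in the GABPB1 line, a log2 fold change of -0.11 ± 0.0713 that did not pass the test (adjusted p = 0.178). Atp5j, a subunit of ATP synthase, overlaps Gabpa on the other strand, and the sources used here do not state how strand was handled in counting, so reads of Gabpa and Atp5j cannot be told apart where they overlap. Atp5j had 134 and 131 CPM in the GABPA line, against 88.3 and 92.5 CPM in the GABPB1 line. Atp5j was thus higher and Gabpa lower.

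A gene was called when the adjusted p of edgeR's quasi-likelihood test, over all genes tested, was under 0.05. Of all genes tested, 61.2% were called: 5162 (31.5%) were higher and 4873 (29.7%) lower in the GABPA line, with a median log2 fold change of 0.0063 over all genes. A difference of more than 2-fold was found for 1535 genes (9.36%) higher and 2041 genes (12.4%) lower, and more than 4-fold for 423 higher and 754 lower. The libraries of the 2 lines did not overlap for 82.4% of all genes tested, so neither a call nor a lack of overlap sets a gene apart here, and the sizes of the differences carry the description that follows. Each count of list members below is to be read beside the 31.5% higher and 29.7% lower over all genes. No list count was tested against these shares.

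Rises and falls were ranked among genes whose mean level over all 12 libraries, dTAG-13 included, reached 3 on the log2 CPM scale. The 15 largest rises among called genes ranged from 2.65 to 4.37 on the log2 scale. Cpe, carboxypeptidase E, which processes prohormones, had 20.5 and 22.6 CPM in the GABPA line, against 1.19 and 0.912 CPM in the GABPB1 line (log2 fold change 4.37 ± 0.149). Id1, an inhibitor of differentiation factors and a target of BMP signalling, had 135 and 111 CPM against 6.35 and 7.04 CPM in the GABPB1 line (4.19 ± 0.17). Its relative Id3 had 140 and 133 CPM in the GABPA line, against 17.6 and 18.5 CPM in the GABPB1 line (2.91 ± 0.0994). For all 3 genes both libraries of the GABPA line lay above every DMSO library of the other lines: the GABPB1/GABPB2 line held 12.8 to 15.4 CPM of Id1 and at most 24.6 CPM of Id3. Bmp4, a ligand of that pathway, was also higher in the GABPA line, with 38.5 and 34.5 CPM against 7.44 and 8.52 CPM in the GABPB1 line. Spry4, a feedback inhibitor of receptor tyrosine kinase signalling, had 109 and 101 CPM in the GABPA line, against 8.97 and 9.96 CPM in the GABPB1 line (3.46 ± 0.0887). Etv4, an ETS-family factor induced by FGF and ERK signalling, had 200.0 and 190.0 CPM against 20 and 23.6 CPM in the GABPB1 line (3.16 ± 0.0862). The ligand Wnt5b was higher by 2.83 ± 0.157. The other rises of this size were in Plce1 (3.06), Emp1 (2.95), Nt5e (2.91), Fkbp10 (2.77), Akr1b8 (2.73), Nkx1-2 (2.67) and Ptges (2.65), of which Fkbp10 and Wnt5b overlap a neighbour on the other strand and Nkx1-2 overlaps Fgfr2 on its own strand.

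The 15 largest falls reached from -3.6 to -7.21 on the log2 scale, the last for Meg3, which had 2 reads in the GABPA line. Usp26, an X-linked deubiquitinase gene expressed in testis, had 0.475 and 0.692 CPM in the GABPA line, against 52.5 and 49.2 CPM in the GABPB1 line (log2 fold change -6.41 ± 0.193). Dppa3, a maternal factor that protects DNA methylation in the zygote and a marker of naive cells, had 1.49 and 1.83 CPM against 41.3 and 44.0 CPM in the GABPB1 line (-4.67 ± 0.143). In the GABPB1/GABPB2 line Dppa3 stood between them, at 9.44 and 11.6 CPM. Slit2, a secreted axon guidance protein, had 1.9 and 1.68 CPM in the GABPA line, against 36.9 and 34.9 CPM in the GABPB1 line (-4.33 ± 0.132). Rnf213, a large ubiquitin ligase with a role in antimicrobial defence, had 9.63 and 14.8 CPM against 169 and 157 CPM in the GABPB1 line (-3.72 ± 0.141). Platr14, a long non-coding RNA associated with pluripotency, was lower by -4.29 ± 0.13. Zfp981 (-4.47) and Zfp991 (-3.6), both on chromosome 4, fell together with their neighbours Zfp992 (-3.17) and Zfp600 (-2.61). Over all Zfp genes, 69 of 372 tested were higher and 162 lower in the GABPA line, with a median of -0.26. Other falls of this size were in Xlr3a (-4.6) and Nrk (-4.18) on the X chromosome, Serpina3m (-4.37), Duxbl1 (-3.98) and Lrrc15 (-3.72).

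**Figure D1:**
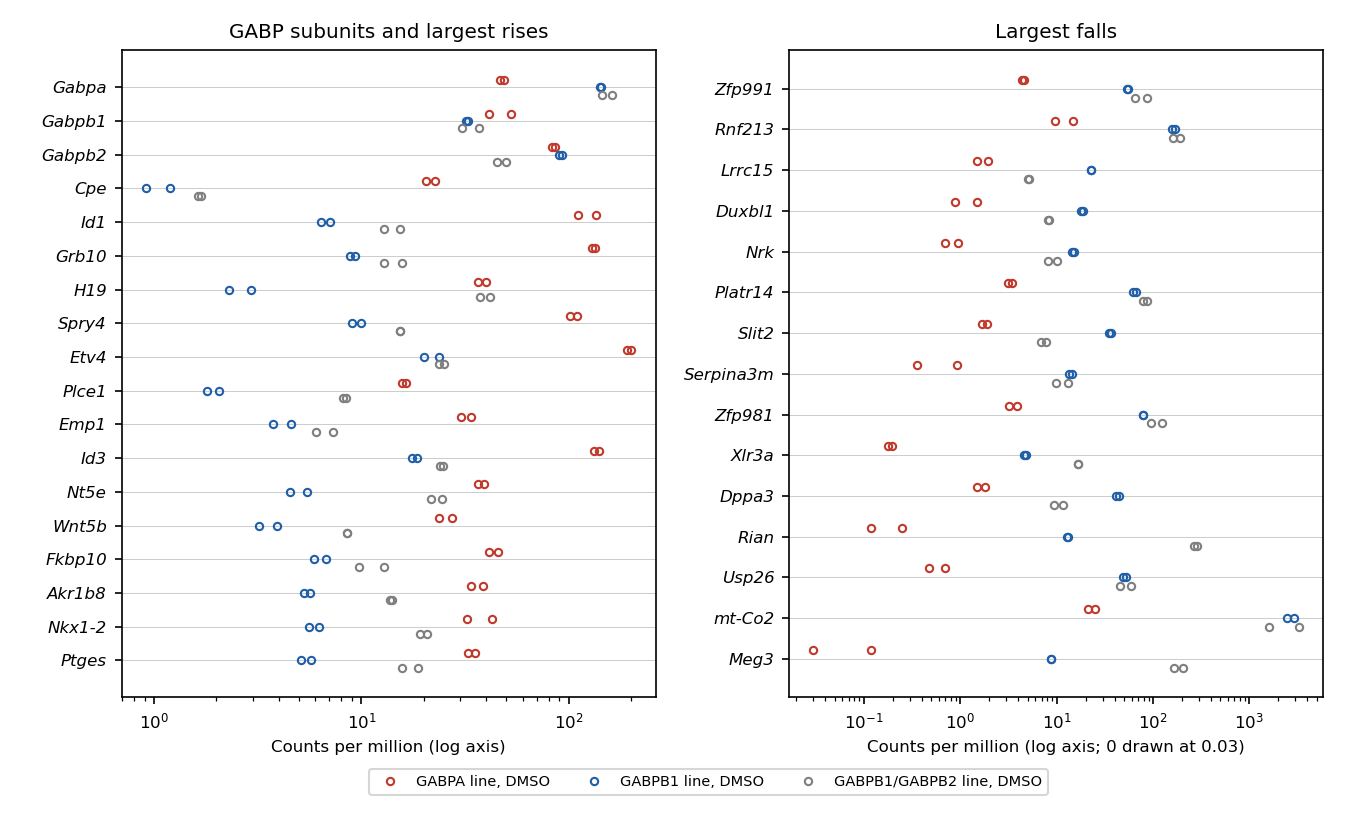
Level of the 3 GABP subunits, the 15 largest rises and the 15 largest falls in the DMSO libraries of 3 lines, in CPM on a log axis, with 1 point per library. The libraries of the GABPA and GABPB1 lines do not overlap for any gene shown, by the narrowest margin for Gabpb2, and the GABPB1/GABPB2 line lies near the GABPA line for H19 and near or beyond the GABPB1 line for Usp26, Rian and Meg3.

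Imprinted genes, which are expressed from 1 parental copy under the control of DNA methylation, held some of the widest differences in both directions. Of 45 listed, 43 were tested: 17 were higher and 20 lower in the GABPA line, with a median of -0.01. Outside chromosomes 6, 8 and 11, whose genes differed as groups as described below, the median was -0.49; 8 of the tested members lie on these chromosomes. At the Dlk1 and Meg3 domain, the non-coding RNA Meg3 (chromosome 12, 109506879 to 109538165, plus strand) had 2 reads over both libraries of the GABPA line, against 530 reads in the GABPB1 line. That is a 172-fold lower level in the GABPA line, with a 95% counting interval of 47.4-fold to 1430-fold. Its neighbour Rian had 0.119 and 0.247 CPM in the GABPA line, against 13 and 12.8 CPM in the GABPB1 line. Both RNAs were far higher still in the GABPB1/GABPB2 line, where Meg3 had 203 and 165 CPM and Rian 264 and 285 CPM, so the 3 lines held 3 separate levels. Rtl1 (0 reads in the GABPA line, against 10 in the GABPB1 line) and Mirg (1 against 25), of the same domain, were lower in the GABPA line as well, while Dlk1 did not pass the test (0.58). H19, a growth-restraining RNA expressed from the maternal copy, went the other way: it had 39.8 and 36.4 CPM in the GABPA line, against 2.3 and 2.92 CPM in the GABPB1 line (3.85 ± 0.129). The GABPB1/GABPB2 line, with 41.5 and 37.2 CPM of H19, did not differ from the GABPA line by the test (-0.05, adjusted p = 0.652). Igf2, the growth factor gene beside H19, was also higher (2.03). Grb10, an adaptor that restrains insulin and IGF signalling, had 134 and 130.0 CPM in the GABPA line, against 9.29 and 8.83 CPM in the GABPB1 line (3.86 ± 0.0977). Peg3, Usp29 and Zim1, of one domain on chromosome 7, were lower by -2.4, -3.63 and -1.53, and so was the antisense RNA Kcnq1ot1 (-3.09). Airn, another antisense RNA, had 0 reads in the GABPA line and 11 in the GABPB1 line. The calls of Airn and Rtl1 were lost when 1 library was left out.

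Of 15 genes of the DNA methylation machinery, 5 were higher and 5 lower (33.3% each, near the 31.5% and 29.7% over all genes). Dnmt3l, the cofactor of the de novo methyltransferases, had 743 and 758 CPM in the GABPA line, against 146 and 149 CPM in the GABPB1 line (2.35 ± 0.0572), and the methyltransferase Dnmt3a was higher by 0.73. The methylcytosine oxidases Tet1 and Tet2 were lower by -1.33 and -1.32. Both are long transcripts, of 14255 and 9136 bases, a class that was lower in the GABPA line as a whole and is given by length further on. Of 28 germline genes that DNA methylation silences, 12 were higher and 5 lower. Their median was 0.41, or 0.26 outside chromosomes 6, 8 and 11, and it was -0.39 against the GABPB1/GABPB2 line. The X-linked homeobox genes Rhox5, Rhox9 and Rhox6 made up 3 of the 5 lower ones (-2.94, -2.09 and -1.57).

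Genes of the 2-cell-like state, a rare and transient state in which stem cells express genes of the 2-cell embryo, were examined next. Of 23 listed, 14 passed the filter on low counts, of which 12 were higher in the GABPA line and 0 lower by edgeR and by DESeq2 (0 also at an unadjusted p under 0.05, since no fitted value was below 0), with a median log2 fold change of 3.4. Arg2 and Eif1a did not pass the test (1.25 and 0.13). Against the GABPB1/GABPB2 line the median of the 14 genes was -0.56. Some members passed the filter only through the lines where they are high, so the count describes these genes and supports nothing more. Zscan4c, which marks that state, had 1.96 and 2.62 CPM in the GABPA line, against 0.0698 and 0.0314 CPM in the GABPB1 line, which is 86 reads against 3, a 44.1-fold higher level with a 95% counting interval of 14.6-fold to 218-fold. The libraries of the GABPB1/GABPB2 line held 3.92 and 4.17 CPM of Zscan4c, above both, so the GABPB1 line was the low one of the 3. Zscan4f had 4.34 and 2.42 CPM in the GABPA line, against 0.454 and 0.44 CPM in the GABPB1 line, and 2.79 and 5.27 CPM in the GABPB1/GABPB2 line. The Zscan4 and Usp17l genes are families of near-identical copies, so the split of reads among their members is uncertain. In bulk libraries, a different number of such cells and a different amount of RNA per cell cannot be told apart. Of 39 Hox genes listed, 9 passed the filter, at low levels and in part through the GABPA line itself. Of these, 8 were called higher in the GABPA line and 0 lower by edgeR and by DESeq2, again with no fitted value below 0, and with a median of 2.72, which is likewise a description. Hoxc10 had 0 reads in the GABPB1 line, and with it at the bound that 3 reads allow the median was 2.21. Against the GABPB1/GABPB2 line the median of the Hox list was 0.53. Hoxc4 had 2.2 and 2.57 CPM in the GABPA line, against 0.279 and 0.189 CPM in the GABPB1 line.

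Of 9 Y-linked genes listed, 3 passed the filter, and they did so only through the GABPA line, so their direction was fixed by the filter and their reads are given as a description. Ddx3y, an RNA helicase gene, had 27 and 35 reads in the DMSO libraries of the GABPA line and 0 reads in all 8 libraries of the GABPB1 and GABPB1/GABPB2 lines. Eif2s3y had 22 and 17 reads in the GABPA line and Uba1y 11 and 10 reads, again against 0 in each of those 8. Taking 3 reads over the group as the limit that a count of 0 allows, Ddx3y was at least 31.8-fold and Eif2s3y at least 20-fold higher in the GABPA line than in the GABPB1 line. Levels were low in the GABPA line too, with 1.6 and 1.73 CPM of Ddx3y against 789 and 732 CPM of its X-linked relative Ddx3x. Ddx3x itself did not pass the test between the lines (-0.1, adjusted p = 0.312). Xist, the RNA that coats an inactive X chromosome, was at 0.475 and 0.988 CPM in the GABPA line and 3.28 and 2.73 CPM in the GABPB1 line.

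General pluripotency genes differed in both directions and, apart from Dppa3, by less than 2-fold. Of 30 tested, 13 were higher and 10 lower, with a median of 0.11. Pou5f1, a core factor of pluripotency, had 1760 and 1800 CPM in the GABPA line, against 917 and 937 CPM in the GABPB1 line (0.94 ± 0.0552). Its partners Sox2 and Nanog were lower in the GABPA line, by -0.48 and -0.47, as was the naive factor Prdm14 (-0.86). Gdf3 and Lin28a were higher by 0.93 and 0.69. Of 19 lineage markers, 9 were higher and 4 lower. Sox1, a neural factor, had 12.3 and 11.1 CPM in the GABPA line, against 1.54 and 1.32 CPM in the GABPB1 line (log2 fold change 3.03). Eomes, a factor of mesendoderm and trophoblast, had 41.0 and 41.6 CPM against 7.78 and 8.11 CPM in the GABPB1 line (2.38), and Cdx2 was higher by 2.48. Tfap2c went the other way, with 25.3 and 23.1 CPM in the GABPA line against 129 and 128 CPM in the GABPB1 line (-2.41).

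Signalling targets differed in both directions. Of 20 genes induced by MAPK signalling or acting in its feedback, 14 were higher and 3 lower in the GABPA line, with a median of 0.95. Beside Spry4 and Etv4, the immediate early genes Fos (2.67), Egr1 (2.57), Junb (1.98) and Myc (1.97) and the phosphatase gene Dusp6 (1.29) were higher, while Spred2, Ier3 and Spry1 were lower by -0.63, -0.61 and -0.4. The calls of Ier3 and Spry1 were lost when 1 library was left out. Against the GABPB1/GABPB2 line, with the same GABPA-line libraries, Spry4 and Etv4 differed by 2.76 and 3.0, while Egr1 and Fos, at -0.23 and -0.13, did not pass the test. Of 19 Wnt targets, 10 were higher and 7 lower, with a median of 0.61, or 1.18 outside chromosomes 6, 8 and 11. Against the GABPB1/GABPB2 line the median of the Wnt list was -0.52, so its sign depended on the line used as reference. Dkk1, a secreted Wnt antagonist, was higher by 3.84, Cdx1 by 2.32 and Sp5 by 2.26, while Notum, which inactivates Wnt ligands, was lower by -1.64 and Lef1 by -1.42. Of 14 LIF and STAT3 targets and pathway genes, 7 were higher and 5 lower, with a median of 0.14, or -0.19 outside those chromosomes. Both receptor chains for LIF were lower, Il6st with 47.1 and 52.2 CPM in the GABPA line against 133 and 135 CPM in the GABPB1 line (-1.43) and Lifr by -1.05. Among 19 ETS-family genes, 5 were higher and 7 lower, with Etv1 (2.04) beside Etv4 at the top and Spic (-2.0), Elf3 (-1.5) and Elf4 (-1.17) at the bottom. Of 17 formative and primed genes, 8 were higher and 6 lower.

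The differences were not spread evenly over the genome. Genes of chromosomes 8 and 6 were higher in the GABPA line as groups, with median log2 fold changes of 0.64 (893 genes, a median 1.56-fold) and 0.51 (784 genes, 1.42-fold). Genes of chromosome 11 were lower, with a median of -0.45 (1315 genes, 0.73-fold). The medians of the other autosomes and the X chromosome, 17 in all, lay between -0.12 and 0.1. On chromosome 8, 61.4% of genes were called higher and 9.85% lower. On chromosome 11 the shares were 9.43% higher and 55.1% lower, against 31.5% and 29.7% over all genes. Relative to the mean of all 12 libraries, the median of chromosome 8 was 0.464 and 0.492 on the log2 scale in the DMSO libraries of the GABPA line, against -0.19 and -0.182 in the GABPB1 line and -0.23 and -0.261 in the GABPB1/GABPB2 line. The dTAG-13 libraries of the GABPA line had 0.436 and 0.428, so all 4 libraries of that line stood apart from all 8 others, and the same held for chromosomes 6 and 11. With 2 libraries against 2, the exact two-sided permutation test cannot go below p = 0.333, which was the value for each of the 3 chromosomes. On chromosome 8 the median was between 0.48 and 0.77 in each 20 Mb window, and on chromosome 11 between -0.59 and -0.38, so the shift ran along both chromosomes. On chromosome 6 it was 0.66 for 394 genes in the first 140 Mb and 0.16 for 30 genes beyond, counting genes whose mean level reached 3 on the log2 CPM scale. DNA copy number was not measured in the libraries used here. Outside chromosomes 6, 8 and 11 and the mitochondrial genome, 59.5% of 13389 genes were still called, 4042 higher and 3924 lower.

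**Figure D2:**
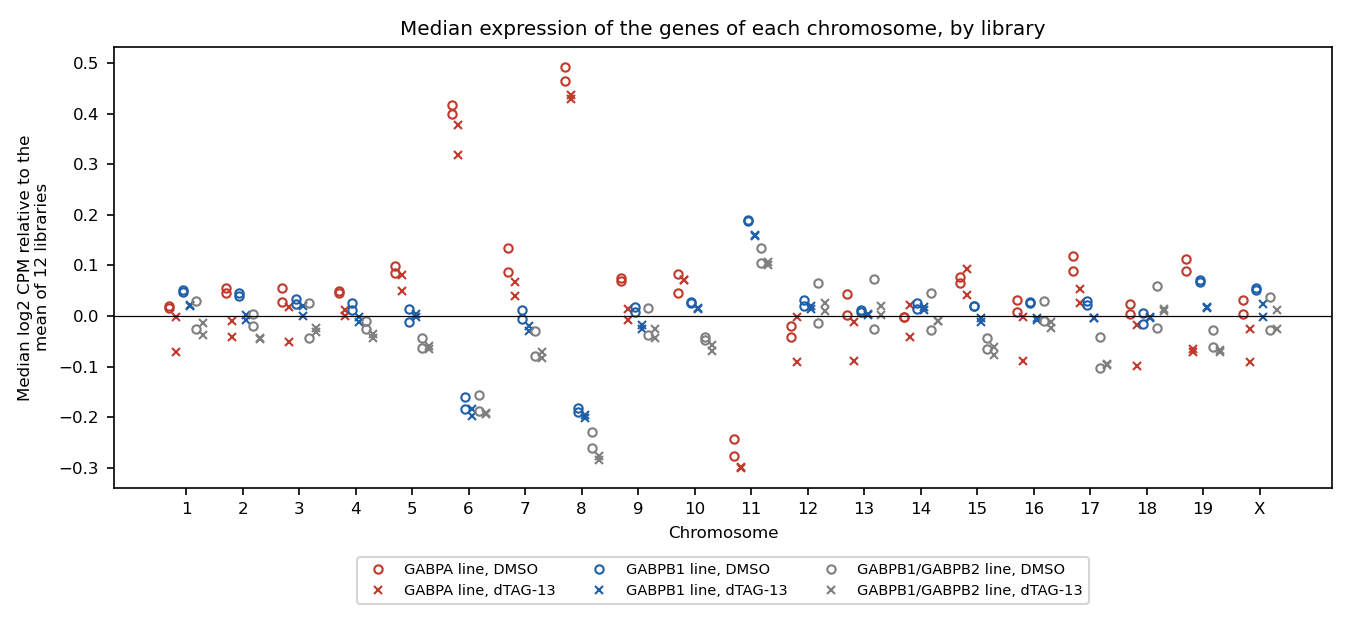
Median log2 CPM of the genes of each chromosome, relative to each gene's mean over 12 libraries, for genes whose mean reached 3 on that scale; each point is 1 library, circles are DMSO and crosses dTAG-13. The 4 GABPA-line libraries lie above the other 8 on chromosomes 6 and 8 and below them on chromosome 11.

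Transcript length also separated the lines. The median log2 fold change was 0.35 for transcripts of up to 1000 bases, 0.27 from 1000 to 2000 bases, 0.08 from 2000 to 3000, -0.05 from 3000 to 4000, -0.23 from 4000 to 6000 and -0.66 over 6000 bases. In the shortest class 42.6% were called higher and 14.8% lower, and in the longest 9.1% higher and 69.2% lower. With each library's effective length in the fit, the medians of the shortest and the longest class were 0.24 and -0.63. Against the GABPB1/GABPB2 line, whose mean fragment lengths lie on both sides of those of the GABPA line, they were 0.3 and -0.66. In the deposited TPM values, which the authors divided by effective length, the median log2 differences were -0.03 and -0.7 for the shortest and the longest class. The median TPM difference over all genes tested was -0.2, so the shortest class lay above it and the longest below. The median length was 2636 bases over all genes tested, and the part of length in the results of single lists was not tested.

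**Figure D3:**
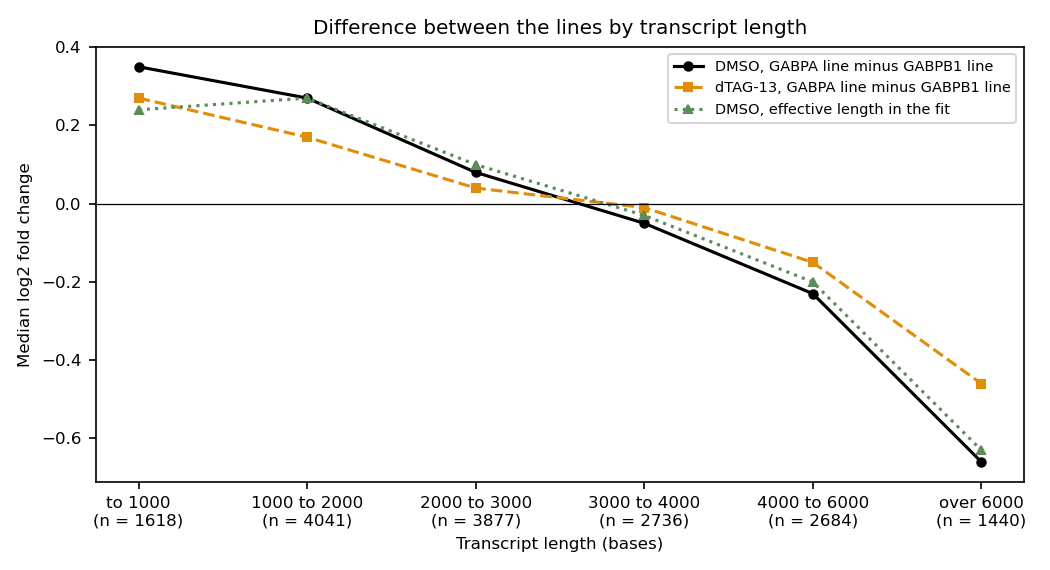
Median log2 fold change of the GABPA line over the GABPB1 line in 6 classes of transcript length in bases, for DMSO, for dTAG-13 and for DMSO with the effective length in the fit. All 3 medians go down from the class of 1000 to 2000 bases on, to between -0.66 and -0.46 over 6000 bases.

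Nuclear genes of mitochondrial function were higher in the GABPA line, and genes of the mitochondrial genome lower. Of 81 nuclear subunits of oxidative phosphorylation, 73 were higher and 1 lower, with a median of 0.64 and a median length of 716 bases. Outside chromosomes 6, 8 and 11 their median was 0.59. In TPM the median of the whole list was 0.24, against -0.2 over all genes tested and -0.03 over transcripts of up to 1000 bases. Ndufa4, a respiratory chain subunit on chromosome 6, had 242 and 232 CPM in the GABPA line, against 77.5 and 81.0 CPM in the GABPB1 line (1.58 ± 0.0702). Cox7c on chromosome 13, of cytochrome oxidase, had 365 and 372 CPM against 127 and 122 CPM in the GABPB1 line (1.56 ± 0.0998), and Cox5b on chromosome 1 was higher by 1.74. Of 78 mitochondrial ribosomal protein genes, 57 were higher and 4 lower (median 0.44, or 0.1 in TPM; median length 1208 bases). Of 90 cytosolic ribosomal protein genes, 73 were higher and 5 lower (median 0.46, or 0.09 in TPM; median length 752 bases). By their median lengths, the oxidative phosphorylation and cytosolic ribosomal lists can be set beside 0.35, the median over transcripts of up to 1000 bases. The mitochondrial ribosomal list can be set beside 0.27, the median over transcripts of 1000 to 2000 bases. Of 13 protein-coding genes of the mitochondrial genome, 10 were lower and 1 higher (median -0.79, median length 784 bases). Among these, 5 were lower and 1 was higher by more than 2-fold. mt-Co1, a cytochrome oxidase subunit, had 3830 and 3780 CPM in the GABPA line, against 9600 and 9510 CPM in the GABPB1 line (-1.33 ± 0.108). mt-Co2 showed the largest fall of the list, with 25.1 and 21.2 CPM in the GABPA line against 2890 and 2450 CPM in the GABPB1 line. That value is uncertain, because a block of 6 tested genes on chromosome 1 holds copies of mitochondrial sequence, summed to 4660 and 4230 CPM in the GABPA line and 3330 and 3360 CPM in the GABPB1 line. One of these copies, Gm10222, had 89.5 and 74.9 CPM in the GABPA line and 0 reads in the GABPB1 line. Mitochondrial genes and block together summed to 14000 and 13300 CPM in the GABPA line, against 26500 and 26200 CPM in the GABPB1 line. This sum does not depend on how reads were split between the mitochondrial genes and the block. Reads placed on other copies of mitochondrial sequence were not counted.

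Genes that depend on GABP in other libraries of the series were then followed. In the GABPB1/GABPB2 line, 351 genes were called and more than 2-fold lower after dTAG-13. In the untreated lines, 165 of them were higher and 64 lower in the GABPA line than in the GABPB1 line (47.0% and 18.2%, against 31.5% and 29.7% over all genes), with a median of 0.29 and a median length of 2293 bases. Labelled new RNA fell after 4 h of dTAG-13 in the SLAM-seq libraries of the GABPA line for 621 genes, of which 591 were tested here. Of those, 359 were higher and 83 lower (60.7% and 14%), with a median of 0.35 and a median length of 2088 bases. A fall is called more readily where a gene is well expressed. Choosing this list in the GABPA line can thus favour genes that are higher in that line, and the size of this was not tested. Outside chromosomes 6, 8 and 11 the medians were 0.29 and 0.34. In TPM, over the whole lists, they were 0.02 and 0.07. The TPM medians were -0.2 over all genes tested and -0.14 over transcripts of 2000 to 3000 bases. Against the GABPB1/GABPB2 line the GABPA line stood at medians of 0.3 and 0.37 for these lists. The DMSO libraries of the GABPB1/GABPB2 line also helped to choose the GABPB-dependent list, so the 0.3 is not a separate view of it. Of 16 genes reported as GABP targets, 9 were higher and 2 lower, among them the cytochrome oxidase genes above and Usp22 (-1.02).

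The motif CCGGAAGT was searched on both strands of the RefSeq promoters (250 bases before to 50 after the gene start, GRCm38.p6), of which 11330 matched a gene tested. It was found at 8.49% of them, at 11.1% of genes higher and 6.25% of genes lower in the GABPA line, and at 32.7% and 36.9% of the GABPB-dependent and new-RNA lists. Among genes with a difference of more than 2-fold it was found at 6.88% of those higher and 3.94% of those lower, both below the share over all genes. Within the GABPB-dependent list, the untreated difference had a median of 0.29 for the 80 genes with the motif and 0.28 for the 165 genes without it. The promoters of the 3 genes with the motif that fell most in the GABPB1/GABPB2 line are given below, 5′ to 3′ on the gene's strand, with the motif, or its reverse complement ACTTCCGG, in capitals. Lypla2 lies at chr4:135972545-135972844 (minus strand), Usp11 at chrX:20703659-20703958 (plus strand) and Kti12 at chr4:108847607-108847906 (plus strand), all in GRCm38.p6.
Lypla2: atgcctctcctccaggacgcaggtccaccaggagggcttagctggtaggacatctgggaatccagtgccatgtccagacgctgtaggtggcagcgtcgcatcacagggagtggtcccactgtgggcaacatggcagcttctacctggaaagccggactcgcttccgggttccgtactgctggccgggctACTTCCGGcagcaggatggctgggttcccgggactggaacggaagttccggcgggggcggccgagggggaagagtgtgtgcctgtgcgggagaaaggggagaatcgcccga
Usp11: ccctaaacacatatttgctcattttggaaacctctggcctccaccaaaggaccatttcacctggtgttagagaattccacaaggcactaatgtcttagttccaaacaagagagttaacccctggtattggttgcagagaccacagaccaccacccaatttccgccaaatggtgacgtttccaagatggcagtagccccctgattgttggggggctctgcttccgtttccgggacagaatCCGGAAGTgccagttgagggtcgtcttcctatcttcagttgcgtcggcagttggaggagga
Kti12: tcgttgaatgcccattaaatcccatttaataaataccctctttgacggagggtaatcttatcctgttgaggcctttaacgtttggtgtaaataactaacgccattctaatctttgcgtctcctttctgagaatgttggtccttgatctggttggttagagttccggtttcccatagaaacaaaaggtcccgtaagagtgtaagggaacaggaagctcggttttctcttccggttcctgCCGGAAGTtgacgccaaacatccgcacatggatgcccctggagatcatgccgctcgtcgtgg

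These 3 genes did not share a direction in the untreated lines. Lypla2, a lipid-removing thioesterase gene, had 104 and 102 CPM in the GABPA line, against 45.1 and 40.5 CPM in the GABPB1 line (1.27 ± 0.106, adjusted p = 2.7e-08). Usp11, an X-linked deubiquitinase gene, had 46.9 and 46.6 CPM in the GABPA line and 48.0 and 49.7 CPM in the GABPB1 line (-0.06 ± 0.078, adjusted p = 0.5). Kti12, which acts in tRNA modification, had 38.7 and 42.2 CPM against 22.9 and 24.1 CPM in the GABPB1 line (0.79 ± 0.0845, adjusted p = 5.06e-07). The 4 GABPB-dependent genes with the smallest p between the untreated lines were all on chromosomes 6 and 8. Of these, Cops7a, a COP9 signalosome subunit, had 266 and 279 CPM in the GABPA line against 119 and 123 CPM in the GABPB1 line, and E2f4, a cell cycle factor, had 339 and 363 CPM against 166 and 168 CPM. Nip7 and Nudt21, of the new-RNA list and also on chromosome 8, were higher by 1.36 and 1.38, and Timm10, a mitochondrial import chaperone gene on chromosome 2, by 2.21. Malat1, a nuclear long non-coding RNA of the new-RNA list, was lower, with 177 and 230.0 CPM in the GABPA line against 1060 and 923 CPM in the GABPB1 line (-2.29 ± 0.117).

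Of 34 genes of the integrated stress response, 21 were higher and 2 lower (median 0.35, median length 2014 bases). Their median was 0.2 outside chromosomes 6, 8 and 11, where 9 of the 34 lie, and 0.09 in TPM. Atf4, the factor that drives it, had 378 and 402 CPM in the GABPA line, against 212 and 216 CPM in the GABPB1 line (0.87 ± 0.0568), and Cth, an enzyme of cysteine synthesis, was higher by 1.82. Of 24 cholesterol synthesis genes, 16 were higher and 5 lower (median 0.38), with Msmo1 and Mvd, both on chromosome 8, higher by 1.4 and 1.38. Among 49 genes for replicating DNA and entering S phase, 33 were higher and 7 lower (median 0.29), with Mcm5 and Gins2 on chromosome 8 at 1.0 and 1.13 and Dut on chromosome 2 at 1.18. Of 20 genes of glycolysis, 8 were higher and 6 lower, with a median of 0.06, or -0.06 outside chromosomes 6, 8 and 11. Of 34 p53 targets, 13 were higher and 10 lower (38.2% and 29.4%, against 31.5% and 29.7% over all genes). The counts were 6 and 7 of 17 Integrator subunits (35.3% and 41.2%). They were 9 and 6 of 20 interferon and MHC class I genes (45.0% and 30.0%). Of 21 clustered protocadherin genes, which share exons so that reads are uncertain, 5 were higher and 1 lower. Of 9 fibroblast genes 2 were higher and 1 lower, the lower one being Fn1, fibronectin, which stem cells also express (882 and 1030 CPM in the GABPA line, against 2920 and 2820 CPM in the GABPB1 line). Of 9 genes of X inactivation and escape, 3 were higher and 3 lower, and H1f0, a linker histone and the 1 histone gene tested, was higher by 0.25.

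**Figure D4:**
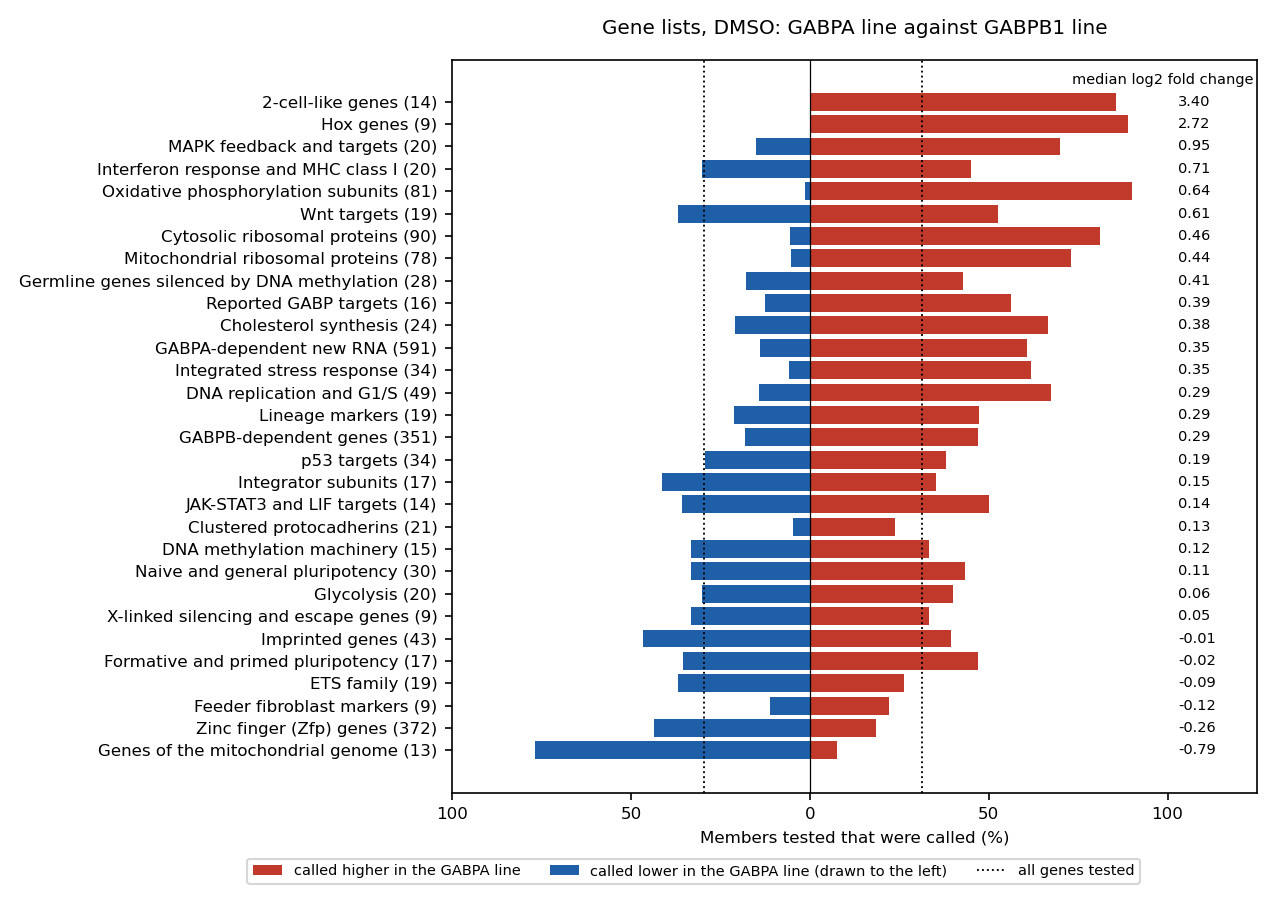
Percent of the tested members of each list that were called higher (right) and lower (left) in the GABPA line than in the GABPB1 line, with the number tested in brackets and the median log2 fold change at the right; dotted lines mark all genes tested, 31.5% and 29.7%. The oxidative phosphorylation list lies almost wholly on the higher side and the mitochondrial genome mostly on the lower side; members of the 2-cell-like and Hox lists that passed the filter did so in part through the lines where they are high.

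Genes near absent from 1 line were taken as those with at most 3 reads over both DMSO libraries of it, and the 10 of them highest in the other line are named for each line. In the GABPA line they included, beside Meg3, Fat2, a giant cadherin gene (2 reads, against 377 in the GABPB1 line), Prlr, the prolactin receptor (3 against 246), Sstr2, a somatostatin receptor (2 against 185), Aurkc, the meiotic Aurora kinase (2 against 145), Abcc2, a bile pigment transporter (2 against 137), and Otog (2 against 100), followed by Cfap206 (3 against 84) and Slc24a5 (2 against 75). The counting intervals put Fat2 at 33.7-fold to 1010-fold and Prlr at 18.0-fold to 260.0-fold lower in the GABPA line. Sstr2 overlaps Slc39a11 and Slc24a5 overlaps Myef2 on the other strand, so reads of these genes are less certain. In the GABPB1 line the rule named, beside the Y-linked and Zscan4 genes, Tex13b on the X chromosome (82 reads in the GABPA line, against 1 in the GABPB1 line), Tie1, an endothelial receptor kinase gene (46 against 3), and Lrrc23 (40 against 3). Further genes named by the rule are uncertain. Exosc6 had 727 reads in the GABPA line and 0 in the GABPB1 line, but it overlaps Aars on the same strand and was at 0 in 1 of the 2 dTAG-13 libraries of the GABPA line too. Zfp968 had 103 reads in the GABPA line and 0 in the GABPB1 line, and the opposite after dTAG-13. Rps12l1, a ribosomal protein copy, had 0 reads in the GABPA line and 773 in the GABPB1 line.

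Genes within 1 Mb of either tagged gene were examined for local differences. Over all genes tested 31.5% were higher and 29.7% lower, and the counts near the tagged genes were not tested against these shares. Near Gabpa, 7 genes were tested, of which 2 were higher and 4 lower in the GABPA line, with a median of -0.52. Beside Atp5j, Mrpl39, a mitochondrial ribosomal protein gene, was higher by 0.33. App, the amyloid precursor gene, was lower by -0.52, Jam2, a junction protein gene, by -0.65, Adamts1 by -1.6 and Cyyr1 by -1.65. Near Gabpb1, 27 genes were tested, of which 7 were higher and 7 lower, with a median of 0.13. Eid1 (1.36), Blvra (0.49), Itpripl1 (0.45), Tmem127 (0.41), Dtwd1 (0.41), Ciao1 (0.31) and Stard7 (0.27) were higher. Mal (1 read in the GABPA line, against 31 in the GABPB1 line), Gpat2 (-1.47), Secisbp2l (-1.02), Ap4e1 (-0.84), Trpm7 (-0.78), Snrnp200 (-0.75) and Fahd2a (-0.7) were lower. The calls of Blvra, Stard7, Dtwd1 and Fahd2a were lost without 1 of the libraries, and that of Ciao1 with the effective length in the fit. Those of Dtwd1 and Fahd2a were also lost in DESeq2 (adjusted p = 0.137 and 0.0869). The call of Dtwd1 was lost as well with the effective length in the fit, without the filter on low counts and in the fit of the 6 DMSO libraries.

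The lines were compared once more after 12 h of dTAG-13, in libraries whose group means the DMSO contrast does not use. Both comparisons came from the same fit of 12 libraries and shared its filter, scaling and estimate of spread. Here each line has lost its own tagged protein, so the line and the lost protein cannot be told apart. In these libraries 5488 genes (33.5%) were higher and 5416 (33.0%) lower in the GABPA line. Of the 1535 genes more than 2-fold higher in DMSO, 1277 (83.2%) were called higher again, 28 were called lower and 230 were not called. Of the 2041 genes more than 2-fold lower in DMSO, 1630 (79.9%) were called lower again, 20 were called higher and 391 were not called. Counting only differences of more than 2-fold in both, the 1110 shared higher genes were 72.3% of the DMSO list and 49.9% of the dTAG-13 list. The 1306 shared lower genes were 64.0% and 54.6%. Among the genes above, Etv4 (3.19), Spry4 (3.05), H19 (4.16), Usp26 (-5.54) and Dppa3 (-4.51) kept a difference of that size, and Gabpa RNA was lower by -1.47. The chromosome medians were 0.61 for chromosome 8, 0.51 for chromosome 6 and -0.44 for chromosome 11. The GABP-dependent lists did not keep theirs: their medians were -1.38 for the GABPB-dependent genes (24 higher and 257 lower) and -0.8 for the new-RNA list (61 higher and 437 lower), a list chosen in SLAM-seq libraries of the GABPA line itself. Lypla2, for instance, had 2.79 and 3.42 CPM in the GABPA line after dTAG-13, against 5.38 and 6.11 CPM in the GABPB1 line. Of the p53 targets, 29 of 34 were higher and 2 lower after dTAG-13, with a median of 1.3 against 0.19 in DMSO.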

How the data were processed

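The series has 92 samples, of which 12 RNA-seq and 14 SLAM-seq libraries in groups of 2 were analysed here; the others were not used here. The deposited RNA-seq tables hold expected counts (estimated counts per gene) and TPM, with transcript and effective lengths, on mm39 per the labels. RSEM 1.3.1 and STAR 2.7.11a are named in the submitters' processing notes. The deposited SLAM-seq tables hold counts of reads with T-to-C conversions, made with slamdunk 0.4.3 per the file headers.

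Expected counts were rounded and fitted with edgeR 4.0.16 (R 4.3.3): 12 libraries, a mean per group, TMM scaling, and filterByExpr (minimum count 10, total 15). The contrast was GABPA line minus GABPB1 line, tested with the quasi-likelihood test and Benjamini-Hochberg adjustment over 16396 genes. A standard error is the absolute log2 fold change over the square root of F. SLAM-seq counts were fitted the same way (15887 genes; 0.94 M to 4.25 M converted reads per library, M being 1e6). CPM values are TMM-scaled unless said otherwise. From deposited TPM only differences of log2(TPM + 0.5) were taken, which understate changes of low genes. How strand was handled is not stated. The series text says that replicates are biological duplicates; replicates of the 2 groups differed by 4.03 and 3.14 times counting error (chi-square per degree of freedom). Counting intervals (95%) and the limit of 3 reads cover counting error only.

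Simulated counts of 16396 genes held no line difference, except that 67, 67 and 66 genes were given log2 changes of 0.585, 1 and 2. These changes were recovered for 55.2%, 74.6% and 93.9% of the genes given them, with calls for 22 of 15560 unchanged genes. In the data 61.2% of genes were called, so the adjusted p sets an unlike cutoff there and these rates do not carry over.

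The members and the 33 gene lists were chosen with earlier results of these data known. Genes were named by a rule: the GABP subunits; the 15 largest rises and falls among called genes whose mean log2 CPM reached 3, with no overlap between lines, a symbol, and no clone or pseudogene name; up to 4 called list members with the smallest p; up to 10 genes with at most 3 reads in a line; and called genes within 1 Mb of Gabpa or Gabpb1. Further list members and neighbours in the text, and Ddx3x, Xist and Gm10222, were chosen after their values were seen. Symbols came from an Ensembl name table and covered 52029 of 56953 IDs.

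Alternatives were DESeq2 1.42.0, edgeR with the size factors of DESeq2, testing without the filter, keeping a mean log2 CPM of 3 or more, fits of the 4 libraries or the 6 DMSO libraries, a replicate block and leaving out each library. Added after seeing the data were an effective length offset, leaving out the GABPB1/GABPB2 line, leaving out chromosomes 6, 8 and 11 and the mitochondrial genome, and a block in the fit of the 4 libraries. The replicate numbers did not pair the libraries. One gene that the rule names is not reported here.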

Additional observations from a re-analysis of the deposited data

Results flagged for a closer look

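Of the 181 genes that the naming rule gave, 8 differed between the 2 lines in opposite directions in DMSO and after dTAG-13, with no overlap of libraries in either; the difference between the 2 conditions was not tested. In DMSO alone, 82.4% of all genes tested showed no overlap, so that part of the rule sets few genes apart. Mrpl53 was higher in the GABPA line in DMSO (1.37) and lower after dTAG-13 (-2.21), and so were Cops7a (1.17 and -1.58), Nip7 (1.36 and -1.59) and E2f4 (1.07 and -1.01). All of these belong to the new-RNA list, chosen for a fall after dTAG-13 in the GABPA line. That choice can favour such a reversal, and its part was not tested. Ephx1 was lower in DMSO (-1.01) and higher after dTAG-13 (0.9), as were Tnfrsf10b (-1.04 and 0.49) and Cyyr1 (-1.65 and 0.82). Zfp968 stood at 9.02 and -9.17, from 0 reads in 1 line each time; its libraries in the GABPB1/GABPB2 line held 0 CPM in 3 and 11.4 CPM in 1.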

How the results depend on the processing

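The counts of genes called higher and lower in DMSO stayed within 1.5 times of 5162 and 4873 under every alternative, from 3494 to 5191 higher and from 3465 to 5216 lower, with 4479 and 4332 in DESeq2. The replicate block gave 5135 and 4852; same-numbered libraries of the 2 lines deviated with a correlation of -0.058, so the numbers do not pair the libraries. Keeping only genes whose mean log2 CPM reached 3 left 506 higher and 802 lower by more than 2-fold in DMSO, 813 and 1014 after dTAG-13, and 95 higher and 33 lower GABPB-dependent genes, where fewer genes were tested. The same setting gave chromosome 6 a median of 0.563 and chromosome 11 one of -0.493. Leaving out 1 library each gave 4184 to 4637 higher and 4135 to 4439 lower (more than 2-fold: 1319 to 1455 and 1779 to 1985). After dTAG-13 the ranges were 4254 to 5110, 4695 to 5494, 1872 to 2254 and 2133 to 2608. Chromosomes 6, 8 and 11 ranged over 0.485 to 0.538, 0.605 to 0.636 and -0.471 to -0.41. GABPB-dependent genes ranged over 133 to 145 higher and 47 to 56 lower, and the new-RNA list over 301 to 338 and 69 to 77. No gene named by the rule changed direction with a call. Calls lost elsewhere than in the text were Exosc6 and Zfp968 in DESeq2 (adjusted p = 0.0535 and 0.103), Pcdhga1 and Pcdhga7 without GABPA-line replicate 2 and H1f0 without any 1 library. Gabpb2 and Ddx3x passed in the fit of the 4 libraries (-0.15 and -0.13, adjusted p = 0.0282 and 0.0175 in edgeR). With 2 libraries per group and depth highest in the GABPB1 line, genes of a few reads per library have the least certain values.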
